A study of Mus musculus with 10 samples.

Results

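Genes of the choroid plexus epithelium were examined in RNA of the ventral hippocampus (vHpc). The set held 36 genes out of the 24421 symbols in the expression table, chosen by name with earlier results of these same libraries known, and divided afterwards by whether each gene followed transthyretin (Ttr) across libraries. Of the 36, 35 had a mean of at least 0.5 CPM (reads on a gene relative to all reads counted on genes in that library, scaled to the same total in each) and were among the 15081 genes tested. The exception was Mfrp. Lmx1a was the only member that passed with a group mean under 0.5 CPM. The choroid plexus is a sheet of secretory epithelium that hangs into the brain ventricles, including the part of the lateral ventricle that borders the hippocampus. Its cells make cerebrospinal fluid by moving ions, bicarbonate and water across their apical and basal membranes, seal the blood off with tight junctions, and secrete carrier proteins, of which transthyretin, the carrier of thyroid hormone and retinol, is the best known. Neurons and glia of the hippocampus make little or no transthyretin, so the gene marks this epithelium in brain tissue.

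All mice were ovariectomized (OVX) females on a C57BL/6 background, about 70 to 80 days old at surgery, either wild type for BDNF (WT) or knock-in heterozygotes with 1 Met allele at the Val66Met site (Het-Met). After 2 weeks of recovery they drank 0.1% ethanol with or without 300 nM estradiol (E2, about 0.7 µg per day) for 6 weeks. The 10 libraries were 2 of vehicle-treated WT (replicates 1 and 3), 2 of E2-treated WT (replicates 1 and 2), 3 each of Het-Met mice given vehicle or E2. Each was made from RNA pooled from 2 animals, so the spread between libraries is a spread between pools, and it averages over the animals in them. Reads counted on genes numbered between 19820184 and 23267410 per library, which made a single read worth between 0.0430 and 0.0505 CPM. Summed markers of neurons stayed between 7244 and 7901 CPM and those of hippocampus between 587 and 653 CPM in all libraries. Other lists varied more, those of thalamus from 71.4 to 113 CPM and those of pituitary from 2.42 to 210.4 CPM.

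Libraries of the same group stood far apart in these genes. The 35 members summed to 623 CPM in replicate 1 and 1979 CPM in replicate 3 of the vehicle-treated WT mice. E2-treated WT libraries held 4276 and 3232 CPM. Vehicle-treated Het-Met libraries held 4608, 2536 and 3216 CPM, against 2726, 1088 and 813 CPM in E2-treated Het-Met libraries. Replicate 1 of the E2-treated Het-Met mice therefore lay with the vehicle-treated libraries of its genotype and not with the other E2-treated ones. The lowest library gave the set 0.0623% of its reads and the highest, replicate 1 of the vehicle-treated Het-Met mice, 0.461%. The share of Ttr in the sum was 17.4% and 66.3% in those libraries. In bulk tissue, fewer cells of a type and less RNA per cell cannot be told apart. Within groups, the SD of log2(CPM + 0.5) had a median of 0.60 over the 35 members and 0.124 over all genes tested. Ttr had the widest spread of the members (1.27) and Car12 the narrowest (0.121).

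**Figure D1:**
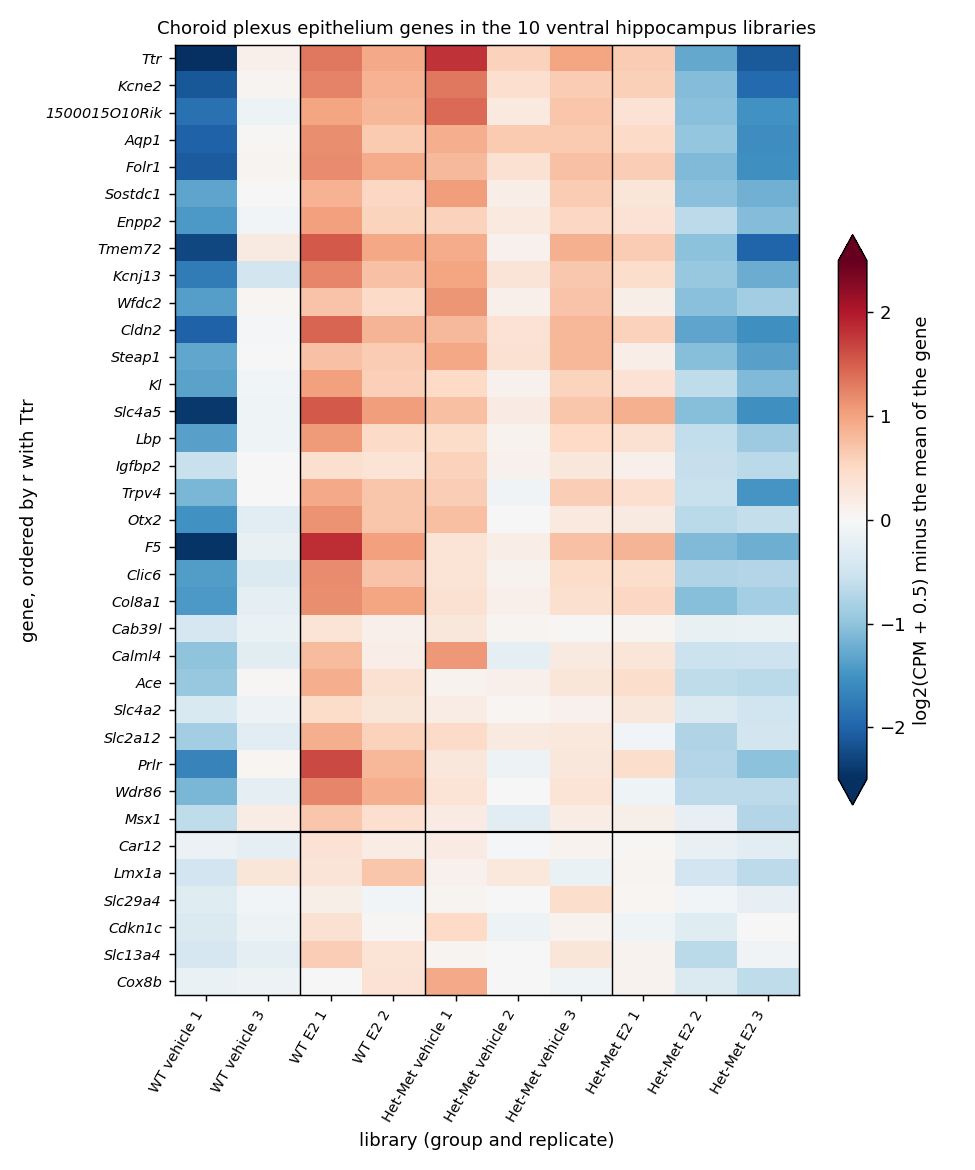
Each row is a member and each column a library. Colour gives log2(CPM + 0.5) minus the mean of the gene over the 10 libraries, and rows are ordered by Pearson r with Ttr, with a line between the members at or above 0.8 and those below. Replicate 1 of the vehicle-treated WT mice and replicates 2 and 3 of the E2-treated Het-Met mice are blue in most rows, while replicate 1 of the E2-treated Het-Met mice is not.

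Among the secreted carriers and hormones, Ttr had the highest level of the set also per length of exons, 1096 CPM per 1000 bases on average. It had 108 and 960.1 CPM in vehicle-treated WT and 2205 and 1687 CPM in E2-treated WT libraries. It had 3055, 1316 and 1734 CPM in vehicle-treated Het-Met and 1369.9, 362 and 204 CPM in E2-treated Het-Met libraries. The lowest value rests on 2342 and the highest on 64403 reads, and their CPM differed 28.2-fold. Group means were 534 ± 602 CPM without and 1946 ± 366 CPM with E2 in WT mice (SD, n = 2 each), and 2035 ± 908 CPM without and 645 ± 633 CPM with E2 in Het-Met mice (SD, n = 3 each). Both E2-treated WT libraries lay above both vehicle-treated WT ones, whereas the E2-treated and vehicle-treated Het-Met libraries overlapped. The SD of the vehicle-treated WT group exceeded its mean.

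Enpp2, which encodes autotaxin, the enzyme that makes lysophosphatidic acid, was the next most abundant member. It had 203 and 521 CPM in vehicle-treated WT and 1115 and 805 CPM in E2-treated WT libraries. Its levels were 823, 647 and 785 CPM in vehicle-treated Het-Met and 704, 349 and 259 CPM in E2-treated Het-Met libraries. As for Ttr, the WT groups did not overlap and the Het-Met groups did. Kl encodes klotho, the co-receptor for fibroblast growth factor 23. Kl had 21.2 and 52.2 CPM in vehicle-treated WT and 112 and 82.8 CPM in E2-treated WT libraries. Kl had 76.9, 58.7 and 80.7 CPM in vehicle-treated Het-Met and 70.4, 34.8 and 25.2 CPM in E2-treated Het-Met libraries. Like Enpp2, it was highest in replicate 1 of the E2-treated WT and lowest in replicate 1 of the vehicle-treated WT mice. Igfbp2 encodes a binding protein of insulin-like growth factors. Its levels were 32.2 and 46.8 CPM in vehicle-treated WT and 62.4 and 60.3 CPM in E2-treated WT libraries. They were 71.3, 51.2 and 57.6 CPM in vehicle-treated Het-Met and 51.9, 31.5 and 29.5 CPM in E2-treated Het-Met libraries. The range of Igfbp2 over the 10 libraries was 2.41-fold, narrower than that of Enpp2 (5.50-fold) and Kl (5.27-fold).

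Among the other secreted members, coagulation factor V (F5) spanned 23.8-fold, from 2.17 to 51.8 CPM. Wfdc2, a small secreted protein with protease inhibitor domains, spanned 17.9-fold at 0.185 to 3.32 CPM. 1500015O10Rik, the gene of the secreted peptide augurin, spanned 12.1-fold. These 3 genes had their lowest value in replicate 1 of the vehicle-treated WT mice. Collagen VIII (Col8a1) spanned 7.31-fold, Lbp, which binds bacterial lipopolysaccharide, 5.95-fold, and the Wnt and BMP antagonist Sostdc1 5.88-fold. Angiotensin-converting enzyme (Ace) had the second narrowest range of the 11 genes of this role after Igfbp2, 3.70-fold from 17.7 to 65.6 CPM.

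Channels, transporters and junction proteins were the largest role, with 13 members. The widest ranges belonged to the sodium bicarbonate cotransporter Slc4a5 (23.7-fold, from 0.879 to 20.9 CPM), the potassium channel subunit Kcne2 (17.1-fold), claudin-2 (Cldn2, 14.5-fold), which forms cation pores in tight junctions, the water channel Aqp1 (13.8-fold) and the folate receptor Folr1 (13.8-fold). The inward rectifier Kcnj13 spanned 9.12-fold, the osmosensitive cation channel Trpv4 7.06-fold and Clic6, of the chloride intracellular channel family, 6.24-fold. Ranges were under 4-fold for the glucose transporter Slc2a12 (3.68-fold), the sulfate cotransporter Slc13a4 (2.48-fold), the anion exchanger Slc4a2 (1.97-fold), the monoamine transporter Slc29a4 (1.69-fold) and the carbonic anhydrase Car12 (1.55-fold). In the GENCODE annotation, 49.1% of the exon bases of Kcnj13 lie opposite exons of Gigyf2, which averaged 87.8 CPM. 13.7% of those of Slc4a2 lie opposite Fastk, and 9.61% of those of Slc2a12 opposite Tbpl1. The libraries were stranded, but whether the counting used the strand is not given in the sources used here, so reads in these stretches cannot be assigned with certainty.

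Slc2a12 had 4.72 and 7.38 CPM in vehicle-treated WT and 17.4 and 13.8 CPM in E2-treated WT libraries. It had 12.9, 10.7 and 10.99 CPM in vehicle-treated Het-Met and 8.61, 5.16 and 6.45 CPM in E2-treated Het-Met libraries. E2-treated WT libraries were the highest, and the E2-treated Het-Met libraries lay below all vehicle-treated Het-Met ones. Car12 had 64.8 and 61.8 CPM in vehicle-treated WT and 92.3 and 82.4 CPM in E2-treated WT libraries. It had 82.5, 70.6 and 76.1 CPM in vehicle-treated Het-Met and 73.3, 63.0 and 59.5 CPM in E2-treated Het-Met libraries. Both E2-treated WT libraries lay above both vehicle-treated WT ones, although the highest library exceeded the lowest only 1.55-fold. Slc29a4 had 42.4 and 50.4 CPM in vehicle-treated WT and 58.3 and 50.3 CPM in E2-treated WT libraries. Its levels were 55.4, 53.0 and 71.7 CPM in vehicle-treated Het-Met and 54.3, 49.97 and 45.3 CPM in E2-treated Het-Met libraries. Replicate 3 of the vehicle-treated Het-Met mice was the highest, and the WT groups overlapped. Slc13a4 had 16.1 and 18.4 CPM in vehicle-treated WT and 33.5 and 27.6 CPM in E2-treated WT libraries. It had 22.7, 22 and 27.0 CPM in vehicle-treated Het-Met and 23.2, 13.5 and 20.4 CPM in E2-treated Het-Met libraries. E2-treated WT libraries were again the highest, and the Het-Met groups overlapped.

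**Figure D2:**
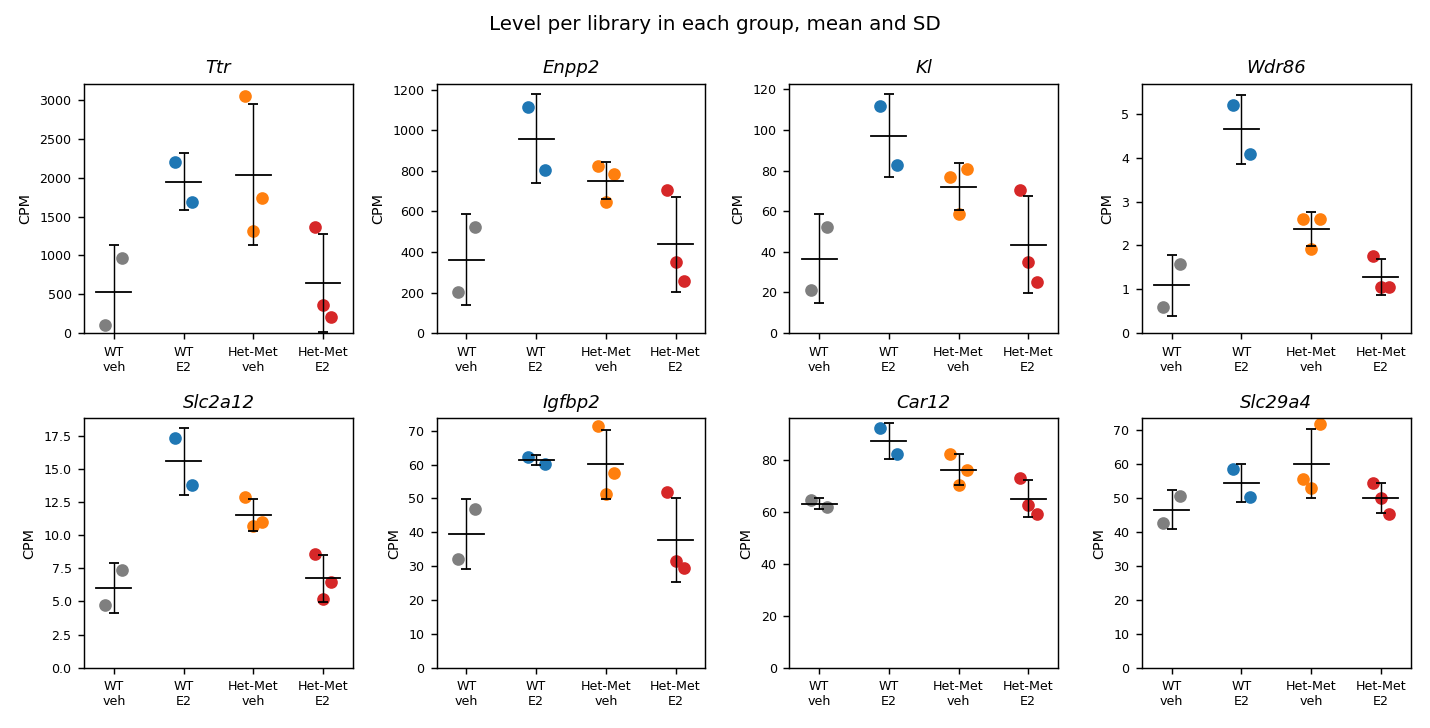
CPM per library (points) for 8 members in the 4 groups, with the mean (line) and SD (bars), n = 2 in each WT group and n = 3 in each Het-Met group. For Ttr, Enpp2, Kl and Igfbp2, 1 E2-treated Het-Met library lies with the vehicle-treated ones, and Car12 and Slc29a4 vary little on an axis that starts at 0.

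The transcription factors were low. Otx2, the homeodomain factor that the choroid plexus needs to form and persist, ranged from 1.57 to 12.4 CPM. The homeobox gene Msx1 had 0.787 and 1.78 CPM in vehicle-treated WT and 2.74 and 2.19 CPM in E2-treated WT libraries. It had 1.80, 1.16 and 1.76 CPM in vehicle-treated Het-Met and 1.71, 1.24 and 0.711 CPM in E2-treated Het-Met libraries. Lmx1a, a LIM homeodomain factor of the roof plate, had 0.278 and 0.842 CPM in vehicle-treated WT and 0.852 and 1.25 CPM in E2-treated WT libraries. It had 0.664, 0.807 and 0.464 CPM in vehicle-treated Het-Met and 0.636, 0.277 and 0.190 CPM in E2-treated Het-Met libraries. The lowest Lmx1a value rests on 4 reads and the highest on 29, so counting error alone is large for it. Of the receptors, the prolactin receptor gene Prlr ranged from 5.74 to 62.3 CPM. Mfrp, a frizzled-related membrane protein, was listed at 0 in all 10 libraries, where a count of 0 allows up to 3 reads, or between 0.129 and 0.151 CPM by counting error alone. 36.7% of its exon bases are shared on the same strand with C1qtnf5, which was listed at 0 in every library too, so no absence of Mfrp RNA can be read from the 0.

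Promoters were searched for short motifs in RefSeq windows of GRCm38.p6, from 250 bases before to 50 bases after each listed start, on both strands. A window was found for 29 of the 36 members (40 windows). The letters TAATCC, bound by OTX2-type homeodomains, stood in 7.5% of the members' windows and in 7.06% of all 32851 windows. Those 3 windows are shown because Otx2 is itself a member, with the motif in capitals (GGATTA where it lies on the opposite strand), 5′ to 3′ along the strand of the gene.
Ace, chr11:105967881-105967966, + strand: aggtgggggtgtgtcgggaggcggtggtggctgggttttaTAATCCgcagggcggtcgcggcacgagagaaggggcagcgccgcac
Otx2, chr14:48665275-48665359, - strand: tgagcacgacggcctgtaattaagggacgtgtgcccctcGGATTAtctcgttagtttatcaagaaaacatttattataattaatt
Mfrp, chr9:44101596-44101681, + strand: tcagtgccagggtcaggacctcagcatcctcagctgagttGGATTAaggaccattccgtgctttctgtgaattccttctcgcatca
The motif begins 27 bases before the start in Ace, 134 in Mfrp and 211 before a start within Otx2. The full estrogen response element was found in 0 member windows and 0.0700% of all windows, and AGGTCA, the core that nuclear receptors share and which can lie within longer elements, in 15.0% and 16.3%. TAATTA, read by LMX1A- and MSX1-type factors, stood in 5% and 5.29%, the TATA box TATAAA in 17.5% and 13.6%, the GC box GGGCGG in 45.0% and 35.7%, the E-box CACGTG in 5% and 7.15%, the CCAAT box in 20% and 37.4%, and the CRE TGACGTCA in 0% and 1.79%. A match is a run of letters and not a bound site, and no match says only that the letters are not in the window.

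Of 34 members besides Ttr, 28 scaled with it, defined as a Pearson r of at least 0.8 between their log2(CPM + 0.5) values over the 10 libraries, against 0.617% of all genes tested. Since the members were chosen with these libraries known, the count is a description. The r of the 28 lay between 0.854 and 0.991, highest for Kcne2 (0.991), 1500015O10Rik (0.990), Aqp1 (0.988) and Folr1 (0.983). Just inside the limit were Msx1 (0.854) and Wdr86 (0.862), and just outside it Car12 (0.780) and Lmx1a (0.772). The other members outside were Slc29a4 (0.748), Cdkn1c (0.729), Slc13a4 (0.723) and Cox8b (0.711). When the group means were subtracted first, so that only differences between libraries of the same group counted, r was at least 0.8 for 28 members again, the lowest being Calml4 (0.806), and it was 0.415 for Slc13a4 and 0.426 for Cdkn1c. Leaving out the 2 libraries farthest from the median of Ttr, replicate 1 of the vehicle-treated WT and replicate 3 of the E2-treated Het-Met mice, lowered r below 0.8 for 5 of the 28, namely Msx1 (0.599), Prlr (0.706), Ace (0.756), Wdr86 (0.756) and F5 (0.776). It left Kcne2 at 0.989 and raised Cdkn1c (0.869), Slc13a4 (0.834) and Car12 (0.812) past the limit, for 26 members in all. At this limit, the relations of those 5 genes rest on the omitted libraries.

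Members that scaled did so to different degrees. On the log2 scale, the slope on Ttr was 0.81 for Tmem72, a transmembrane protein of unassigned function, 0.79 for Kcne2, 0.77 for Slc4a5 and 0.73 for F5. It was 0.49 for Enpp2, 0.27 for Igfbp2, 0.19 for Slc4a2 and 0.13 for Cab39l, a scaffold of the kinase LKB1. Every member besides Ttr had a slope below 1. On this scale the pseudocount lowers the slope of low genes, such as Tmem72, whose CPM spanned 41.9-fold over the libraries, and the transcription factors. A straight line of CPM on Ttr CPM gave the level each gene would have at a Ttr of 0, as a share of its mean. This share was 9.61% for Kcne2, 9.78% for Wfdc2, 10.3% for 1500015O10Rik and 13.3% for Tmem72, with standard errors of 8.36, 6.87, 3.77 and 21.7 percentage points. Only that of 1500015O10Rik lay more than 2 standard errors above 0. It was 43.2% for Enpp2 and 44.7% for Kl, and reached 74.3% for Slc4a2, 79.6% for Cab39l, 82.5% for Car12 and 87.3% for Slc29a4, with standard errors of 4.65 and 7.17 points for Car12 and Slc29a4. By role, the median slope was 0.50 for the secreted genes (Ttr at 1 included), 0.49 for channels and transporters and 0.24 for the 3 transcription factors.

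**Figure D3:**
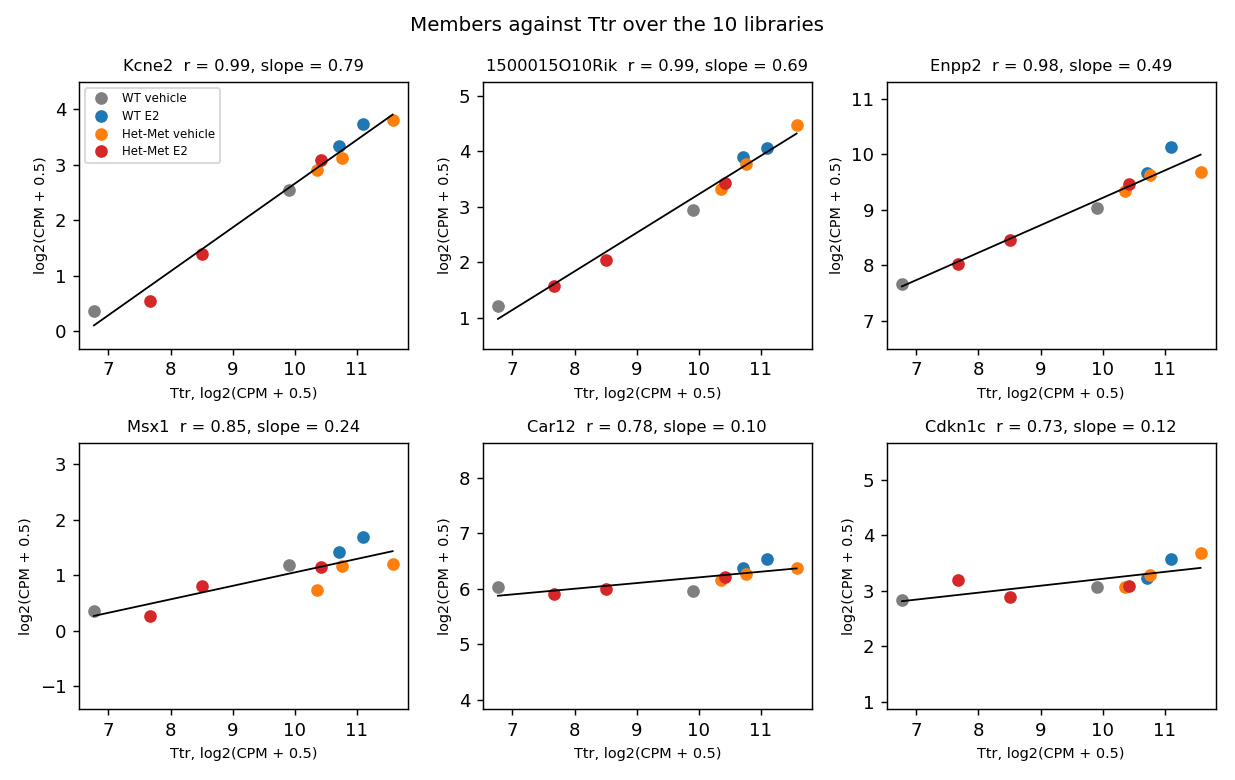
log2(CPM + 0.5) of 6 members against that of Ttr in the 10 libraries, coloured by group, with the least-squares line. Each panel spans the same number of log2 units on the vertical axis, so steepness can be compared, from 0.79 for Kcne2 to 0.10 for Car12.

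The 6 members that did not scale differed among themselves. Car12 and Slc29a4 were abundant in every library and Lmx1a and Cox8b were near 1 CPM or below, so the division does not follow level. The cell cycle inhibitor Cdkn1c had 6.62 and 7.88 CPM in vehicle-treated WT and 11.4 and 8.81 CPM in E2-treated WT libraries. It had 12.4, 7.87 and 9.23 CPM in vehicle-treated Het-Met and 7.93, 6.87 and 8.58 CPM in E2-treated Het-Met libraries. In the annotation, 30.7% of its exon bases lie opposite exons of Gm44732. Cox8b, a subunit of cytochrome c oxidase found in muscle, had 0.648 and 0.694 CPM in vehicle-treated WT and 0.808 and 1.16 CPM in E2-treated WT libraries. It had 1.99, 0.807 and 0.696 CPM in vehicle-treated Het-Met and 0.881, 0.507 and 0.332 CPM in E2-treated Het-Met libraries. Both peaked in replicate 1 of the vehicle-treated Het-Met mice, the library with the highest Ttr. Windows of Slc13a4 and Slc29a4 are given as examples of promoters of members that did not scale, with CCAAT boxes (ATTGG on the opposite strand) or the TATA box (TTTATA on the opposite strand) in capitals.
Slc13a4, chr6:35308152-35308336, - strand: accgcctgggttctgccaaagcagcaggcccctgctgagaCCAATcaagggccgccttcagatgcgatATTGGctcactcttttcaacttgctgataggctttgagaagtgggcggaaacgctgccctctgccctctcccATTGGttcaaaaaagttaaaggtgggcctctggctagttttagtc
Slc29a4, chr5:142701851-142701914, + strand: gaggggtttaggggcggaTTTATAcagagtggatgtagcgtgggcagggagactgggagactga
Slc13a4 holds 3 CCAAT boxes, the first 170 and the last 70 bases before the start, and the TATA box of Slc29a4 begins 232 bases before a start within the gene.

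Differences between groups were tested with limma on log2(CPM + 0.5) over all 15081 genes, with Benjamini-Hochberg adjustment and a call at an adjusted p under 0.05 and a fold change above 1.3. For low genes the pseudocount pulls these fold changes towards 1. The 4 pairwise comparisons share libraries with each other and each value is given on its own. The members were chosen with these contrasts known, so their counts are descriptions and nothing is read from their excess over the share of all genes given beside them.

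In OVX WT mice, the estimated difference with E2 add-back was above 0 for all 35 members, with a median of 1.501 log2 units, where the median of all genes tested was -0.00261. Adjusted calls numbered 0 of 35 with limma, beside 0.0133% of all genes, and the smallest adjusted p among members was 0.0646 (Wdr86). edgeR and DESeq2 on the recovered reads called 0 and 4 members, out of 2 and 14 genes called in all. At an unadjusted p under 0.05 with the same fold limit, 32 members were higher, beside 1.69% of all genes. The 3 that did not pass were Cox8b, Lmx1a and Slc29a4. Libraries of the 2 groups did not overlap for 34 members, beside 15.6% of all genes, the exception being Slc29a4. The difference was 2.58 (standard error 0.81) for Ttr, 2.76 (0.63) for F5, 1.54 (0.39) for Enpp2 and 0.23 (0.14) for Slc29a4. Without replicate 1 of the vehicle-treated WT mice 16 members passed at the unadjusted p in place of 32. The median of the members without that library was 0.88 and without replicate 3 it was 2.12. The second of these omissions raised the adjusted calls to 6, out of 7 genes called in all. Leaving out replicate 1 of the E2-treated Het-Met mice, which enters here only through the shared spread, gave 7 calls out of 16 genes called in all. Leaving out replicate 2 of that group gave 1 out of 4.

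OVX Het-Met mice had estimates of the opposite sign. The estimated difference with E2 was below 0 for all 35 members, with a median of -0.76, against 0.00445 for all genes. limma called 0 members, beside 0% of all genes, with a smallest adjusted p of 0.597. edgeR and DESeq2 called 0 and 0, out of 0 and 6 genes called in all. 22 members passed the unadjusted p and the fold limit downward, beside 0.928% of all genes, among them 9 of 11 secreted genes, 8 of 13 channels and transporters and 1 of 3 transcription factors. Only 4 members, Aqp1, Slc2a12, Steap1 and Wdr86, had groups that did not overlap, beside 5.11% of all genes. Replicate 1 of the E2-treated mice was higher than both other E2-treated libraries in 34 of 35 members and higher than replicate 2 of the vehicle-treated mice in 29. Without that library the median difference was -1.10, whereas it was -0.60 without replicate 2 and -0.55 without replicate 3. The 22 members at the unadjusted p became 10 and 13 without replicate 3 or 2 of the E2-treated mice and 12 without replicate 1 of the vehicle-treated mice. Ttr differed by -2.04 (standard error 0.66), Kcne2 by -1.60 (0.54) and Steap1, of a family of metalloreductases, by -1.49 (0.36).

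Under vehicle, the estimate for OVX Het-Met relative to OVX WT mice was above 0 for all 35 members, with a median of 1.09 (all genes 0.02002). Adjusted calls numbered 0 with limma, beside 0.00663% of all genes. They numbered 0 with edgeR and 1 with DESeq2, out of 1 and 34 genes called in all. At the unadjusted p 29 members passed upward, beside 1.59% of all genes. Groups did not overlap for 29 members, beside 14.8%, and overlapped for Cdkn1c, Lmx1a, Msx1, Prlr, Tmem72 and Trpv4. The size of this difference depended on which of the 2 vehicle-treated WT libraries was kept. The median was 1.73 without replicate 3 and lower without replicate 1. Without it 2 members in place of 29 passed at the unadjusted p, the median was 0.52, and the differences of Lmx1a and Msx1 turned to -0.24 and -0.15. 34 of 35 members were lower in that library than in replicate 3.

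Under E2, the estimate for OVX Het-Met relative to OVX WT mice was below 0 for all 35 members, with a median of -1.27 (all genes 0.0279). limma called 0, beside 0.0265% of all genes, with a smallest adjusted p of 0.0619 (Wdr86). edgeR called 2 and DESeq2 4, out of 14 and 29 genes called in all. 31 members passed downward at the unadjusted p, beside 2.73% of all genes, including the 11 secreted genes and the 3 transcription factors. The exceptions were Cab39l, Cdkn1c, Cox8b and Slc29a4. Groups did not overlap for 31 members, beside 14.7%, and overlapped for Ace, Calml4, Cox8b and Slc29a4. Leaving out replicate 1 of the E2-treated Het-Met mice gave a median of -1.68 and 19 adjusted calls, out of 45 genes called in all. Without replicate 1 of the E2-treated WT mice the median was -1.06 and 19 members in place of 31 passed at the unadjusted p.

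The interaction term asks whether the E2 difference in OVX Het-Met mice equalled that in OVX WT mice. It was below 0 for all 35 members, with a median of -2.45 against 0.00511 for all genes. limma called 2 members, beside 0.0729% of all genes, edgeR called 2 and DESeq2 5, out of 11, 13 and 37 genes called in all. At the unadjusted p 34 members passed, all but Cox8b, beside 2.02% of all genes. The adjusted calls were Slc2a12 (chromosome 10, 22645011 to 22704285 of mm10) and Wdr86 (chromosome 5, 24711738 to 24730727 of mm10), a WD-repeat protein. Wdr86 had 0.601 and 1.59 CPM in vehicle-treated WT and 5.20 and 4.08 CPM in E2-treated WT libraries. It had 2.61, 1.92 and 2.60 CPM in vehicle-treated Het-Met and 1.76, 1.06 and 1.04 CPM in E2-treated Het-Met libraries. In neither genotype did the vehicle-treated and E2-treated libraries overlap, and the E2-treated WT libraries were the highest. The interaction was -2.45 (standard error 0.37, limma adjusted p = 0.0333) for Wdr86 and -2.07 (0.29, adjusted p = 0.0333) for Slc2a12. Ttr had a larger term, -4.61, with a larger error (1.05, adjusted p = 0.128). The SD within groups on the log2 scale was 0.355 for Wdr86 and 0.291 for Slc2a12, against 1.27 for Ttr. Both calls were lost on leaving out any library other than replicate 3 of the vehicle-treated WT or replicate 1 of the E2-treated Het-Met mice. Leaving out those gave 24 and 29 calls, out of 46 and 71 genes called in all. Among members that scaled with Ttr (Ttr included) the median term was -2.499, and among the 6 that did not it was -0.83.

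**Figure D4:**
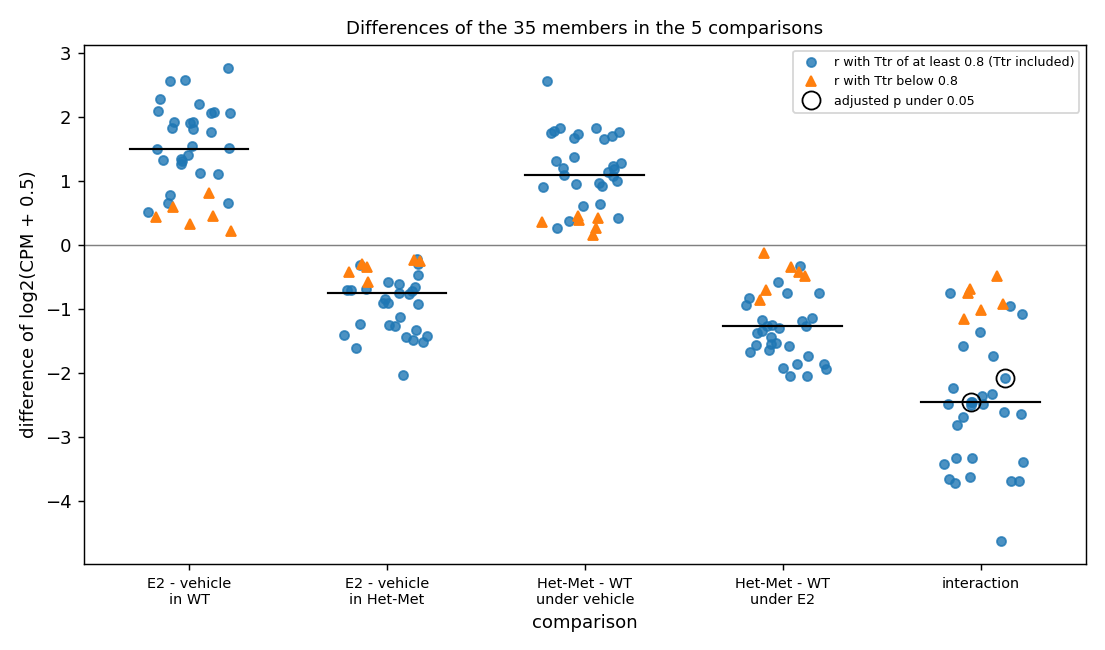
Each point is a member and gives its difference in log2(CPM + 0.5) in 1 of the 5 comparisons, with the median as a line. Circles are Ttr and the 28 members that scaled with it, triangles the 6 that did not, and rings mark an adjusted p under 0.05, reached by Slc2a12 and Wdr86 in the interaction. Points lie on 1 side of 0 in every comparison.

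Of the members not yet described, the calmodulin-like gene Calml4 ranged from 2.17 to 10.8 CPM and peaked in replicate 1 of the vehicle-treated Het-Met mice. Cab39l ranged from 34.7 to 59.2 CPM, and Steap1 from 0.285 to 3.46 CPM. Counting libraries, 23 members were highest in replicate 1 of the E2-treated WT mice and 10, Ttr among them, in replicate 1 of the vehicle-treated Het-Met mice. 26 were lowest in replicate 1 of the vehicle-treated WT mice and 8 in replicate 3 of the E2-treated Het-Met mice. The members lie on 14 chromosomes, with 7 on chromosome 5, and the members on the chromosome of Bdnf, Lbp and Wfdc2, are 48.6 and 54.8 Mb from it.

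Which of the 2 highest libraries led followed gene length. Across the 35 members, the log2 difference between replicate 1 of the E2-treated WT and replicate 1 of the vehicle-treated Het-Met mice rose with exon length, with Spearman's rho of 0.729 and Pearson's r of 0.784 over genes, and genes are no independent replicates. The other genes tested showed rho of 0.426. Of 9 members with under 2000 exon bases, 8 were lower in the E2-treated WT library (median -0.23), and of 26 longer ones 2 were (median 0.46). In other genes these medians were -0.25 and -0.0243. Cox8b, with 360 exon bases, differed by -0.93 and Ttr (1186 bases) by -0.47, whereas F5 (7430 bases) differed by 1.51 and Prlr (15339 bases) by 1.37. Over all genes, the rank correlation of length with the deviation of a library from the mean of the libraries ran from -0.424 in replicate 1 of the vehicle-treated Het-Met mice to 0.306 in replicate 3 of the vehicle-treated WT mice. It was above 0 in every WT library (lowest 0.0915). In the Het-Met libraries it was below 0 except in replicate 1 of the E2-treated mice (0.0450), so this trend went along with genotype. Removing this trend from each library left the count of members that scale with Ttr at 28. The medians for Het-Met against WT were then 1.13 under vehicle and -1.31 under E2. The slope of members on Ttr had a rho of -0.0753 with exon length.

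**Figure D5:**
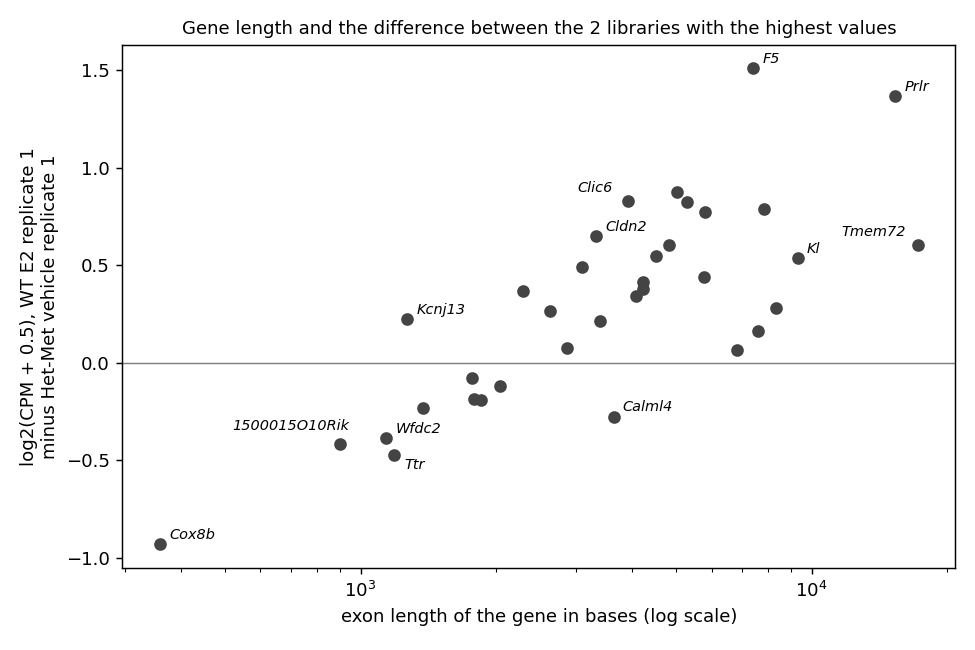
Points are the 35 members, by exon length in bases (log scale) and by the difference in log2(CPM + 0.5) between the 2 libraries that held most of the highest values. Short genes such as Cox8b and Ttr lie below 0 and long ones such as F5 and Prlr above it.

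Genes outside the set that followed Ttr most closely over the 10 libraries were Drc7, a part of the dynein regulatory complex of cilia (r 0.969), Prr32 (0.956), the protease gene Tmprss11a (0.944), Pbxip1 (0.943), the copper importer Slc31a1 (0.937), Epn3 (0.936), Col9a3 (0.930), the retinol dehydrogenase Rdh5 (0.930), Nek5 (0.929) and the zinc importer Slc39a4 (0.928). Their slopes on Ttr ran from 0.0467 (Pbxip1) to 0.47 (Drc7). In all, 65 genes outside the set reached r of 0.8, and 16 of the 20 highest r belonged to members.

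A further 36 genes known from the choroid plexus, many of them also used by neurons, glia or vessels, gave a different picture. Of 35 tested, 8 reached r of 0.8 with Ttr: Abca4, Car14, Ezr, Krt8, Krt18, Slc16a8, Slc31a1 and Sulf1. Summed, the list stayed between 6241 and 6835 CPM, a range of 1.10-fold, dominated by genes such as Atp1b1, a subunit of the sodium pump (mean 2048 CPM, r 0.0998), and clusterin (Clu, 1106 CPM, r 0.0663). The serotonin receptor gene Htr2c had r of 0.525 and the cation channel gene Trpm3 0.738. At the unadjusted p with the fold limit, 11 of the 35 were higher with E2 in WT and 4 lower with E2 in Het-Met mice, while 8 were higher in Het-Met mice under vehicle, 10 lower under E2 and 15 had a negative interaction. Over all genes these shares were 1.69%, 0.928%, 1.59%, 2.73% and 2.02% in that order. None passed the adjusted p with limma.

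Markers of other cells of the ventricle and its surroundings are given beside these values. Ependymal markers (15 of 16 in the table, all 15 tested) summed to between 39.8 and 40.9 CPM in vehicle-treated WT, 70.5 and 72.4 CPM in E2-treated WT, 48.2 and 64.1 CPM in vehicle-treated Het-Met and 44.6 and 51.5 CPM in E2-treated Het-Met libraries. At the unadjusted p with the fold limit, 10 of the 15 were higher with E2 in WT and 1 lower with E2 in Het-Met mice, 5 were higher in Het-Met mice under vehicle and 9 lower under E2, and 9 had a negative interaction (median -0.80, 1 adjusted call with limma). Over all genes these shares were 1.69%, 0.928%, 1.59%, 2.73% and 2.02%, and 0.0729% for the adjusted call. The median difference of the ependymal markers had the sign of that of the choroid plexus genes in all 5 comparisons. Their median r with Ttr was 0.435, and 0 of 15 reached 0.8. Meningeal markers (16 of 16 tested) summed to 467 to 655 CPM with a median r of -0.0887, and endothelial markers (9 of 9 tested) to 222 to 284 CPM with -0.0550. The median difference of the meningeal markers also had the sign of the choroid plexus genes in all 5 comparisons. It was 0.0983 and -0.0634 for E2 in WT and Het-Met mice, 0.153 and -0.0427 for genotype under vehicle and E2, and -0.123 for the interaction. In the interaction, 2 of the 16 were lower at the unadjusted p with the fold limit, and limma gave 1 adjusted call. These meningeal medians lay close to 0. Medians of the neuronal markers had the opposite sign in all 5 comparisons, at -0.0677, 0.0620, -0.0396, 0.0421 and 0.0817 in the same order. Within the meningeal list, Igf2 had the highest r with Ttr (0.788). Thalamic markers (8 of 8) summed to 71.4 to 113 CPM, highest in the E2-treated Het-Met group (84.9 to 113 CPM), with a median r of -0.337. Their median differences were -0.0233 and 0.270 for E2 in WT and Het-Met mice. For genotype under vehicle and E2 they were 0.0104 and 0.374, and for the interaction 0.374. Pituitary markers, of which 4 of 8 were tested, ranged from 2.42 to 210.4 CPM with a median r of 0.319. Median r was -0.271 for neurons, 0.234 for astrocytes, -0.407 for oligodendrocytes, 0.0655 for microglia and 0.0780 for the markers of hippocampus. Of 5 blood markers, 4 were listed at 0 in all libraries. The part of these cell types in the differences above was not tested.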

How the data were processed

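RNA of the vHpc was sequenced from stranded libraries in 75-base single-end reads. The authors trimmed, filtered and aligned the reads to mm10 with TopHat2 and deposited 1 table of CPM for the 10 libraries, per the labels and the methods, with values relative to the reads counted on genes. The methods state 3 replicates per group, and the 2 that would complete the WT groups were not analysed here. In each library 100% of values were whole multiples of the value of 1 read (tolerance 0.01), so whole reads were recovered. Depth was 19820184 to 23267410 reads, and limits from counts cover counting error only.

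Genes under a mean of 0.5 CPM were left out and the rest taken as log2(CPM + 0.5). limma 3.58.1 (R 4.3.3) fitted the 4 group means over all libraries, two-sided, with a trend on the mean level (6 residual and 8.90 prior degrees of freedom). It was checked on simulated reads with the same dispersion for every gene. That check says nothing on genes as variable as the members (median SD within groups 0.60 against 0.124 for all genes). The study's methods used DESeq on counts, and DESeq2 on raw reads for the comparison of mouse with human. Since the deposited values are CPM, edgeR 4.0.16 and DESeq2 1.42.0 on the recovered reads served as alternatives. Other alternatives were pseudocounts, filters, scalings, quantile normalization, a replicate block, only the libraries compared, and each library left out, and, chosen after seeing the data, removal of the gene length trend and omission of the 2 libraries with the most distant Ttr. Exon lengths and positions came from GENCODE vM21 (23376 of 24421 symbols matched directly, 677 by an older symbol) and promoters from RefSeq, GRCm38.p6. Python 3.11.15, pandas 2.3.3 and matplotlib 3.10.9 were used.

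The members and the marker lists were chosen with earlier results of these data known, so counts over them describe and support nothing. Values in every library are given for Ttr, the 5 members with the highest mean besides it, members called in any comparison, and those just inside or outside r of 0.8. The 10 genes outside the set with the highest r with Ttr are named, as are promoters with the OTX2-type motif and of 2 members that did not scale. Any other gene named, such as those at the ends of a range, was chosen after its values were seen. The labels call the pools of a group biological replicates, and p-values measure the spread between these pools.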

Additional observations from a re-analysis of the deposited data

Results flagged for a closer look

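Slc2a12 and Wdr86 were picked out because the E2 difference in OVX Het-Met mice differed from that in OVX WT mice by the test of the interaction itself. For Slc2a12 the E2 difference on the log2 scale was 1.31 in OVX WT and -0.76 in OVX Het-Met mice, an interaction of -2.07 (limma adjusted p = 0.0333). For Wdr86 these were 1.75 and -0.70, an interaction of -2.45 (limma adjusted p = 0.0333). Every E2-treated library lay on one side of the vehicle-treated ones in each genotype, above in 2 of 2 WT and below in 3 of 3 Het-Met libraries. Aqp1 and Steap1 separated in this way in both genotypes too. Of all genes, 15.6% did so in WT and 5.11% in Het-Met mice, and the share that did so in both was not counted. Both genes were picked on these same libraries, so the separation adds no support. With edgeR the adjusted p was 0.0448 and 0.0462, and across the alternatives it ran from 1.99e-08 (DESeq2) to 0.224 for Slc2a12 and from 7.45e-05 (DESeq2) to 0.310 for Wdr86. Other members had negative terms too, and the difference between members was not tested.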

How the results depend on the processing

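The direction of each member in each comparison was recomputed under 22 alternatives. Of 3790 values, 3650 kept their direction and side of the threshold, 120 gained a call, 18 lost one and 2 reversed, those being the Het-Met difference under vehicle of Lmx1a (-0.24) and Msx1 (-0.15) without replicate 1 of the vehicle-treated WT mice, where the values with 1 library left out ran up to 0.55 and 0.67 (without replicate 3). The number of members that scale with Ttr stayed within 1.5 times 28. Counts of adjusted calls were unstable, and beyond fewer genes, libraries or another threshold the cause was not tested. For E2 in WT mice (main 0) they were 1 with a pseudocount of 1 and 4 with DESeq2, out of 4 and 14 genes called in all. At the unadjusted p the count was 32. With a library left out it ran from 0 to 7 (7 without replicate 1 of the E2-treated Het-Met, 6 without replicate 3 of the vehicle-treated WT and 1 without replicate 2 of the E2-treated Het-Met mice). Genes called in all then numbered 16, 7 and 4 in that order. For E2 in Het-Met mice (main 0) they were 22 at the unadjusted p. Het-Met against WT under vehicle (main 0) gave 1 with DESeq2, out of 34 genes called in all, and 29 at the unadjusted p. Under E2 (main 0) it gave 1 with a pseudocount of 1, out of 8 genes called in all. It gave 2 each with median-of-ratios scaling, TMM scaling, the length trend removed, only the libraries compared and edgeR. Genes called in all then numbered 10, 10, 12, 51 and 14. DESeq2 gave 4 out of 29, and 31 passed at the unadjusted p. With a library left out the count ran from 0 to 19. It was 19 out of 45 without replicate 1 of the E2-treated Het-Met mice. Without replicate 1 or 3 of the vehicle-treated WT mice it was 2 out of 9. The interaction (main 2) gave 0 with no filter on low values and 5 with DESeq2, out of 0 and 37 genes called in all, and 34 at the unadjusted p. With a library left out it gave 0 to 29 (29 out of 71 without replicate 1 of the E2-treated Het-Met, 24 out of 46 without replicate 3 of the vehicle-treated WT, 0 without any other). Only the libraries compared are all 10 libraries for the interaction, so that setting gave no further value. A replicate block gave 3 calls for E2 in WT mice and 7 for the interaction, out of 10 and 18 genes called in all, and 0 in the other comparisons. For Het-Met against WT under E2, the genes called in all ran from 0 with no filter on low values to 51 with only the libraries compared. Over the 12 pairs of libraries with the same replicate number, within and across genotypes, the correlation of deviations from the group means over genes ran from -0.172 to 0.0826 and passed 0.1 in 0 pairs, so the numbers were not taken to pair the libraries. Leaving out 1 library also moved counts at the unadjusted p by over 1.5 times in the 4 pairwise comparisons, as given with each. Precision is limited by 2 or 3 pools per group and by few reads for Lmx1a, Cox8b and Wfdc2.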
